A study of Mus musculus with 12 samples.

Results

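The lungs of Chil4-deficient mice given DRA allergens (KO_DRA) were compared with the lungs of wild type mice given PBS (B6_PBS), over every endogenous probe of an innate immune panel. The comparison holds 7 of the 12 libraries of the study, 5 labelled KO_DRA and 2 labelled B6_PBS. The other 5 libraries came from wild type littermates given the same allergens (B6_DRA), and they are used where a value of the first comparison needs a wild type one beside it. Each library is RNA of 1 lung lobe, measured on the NanoString nCounter platform, where RNA is hybridised to colour-barcoded probes that are then imaged one by one, with no copying step. All mice were dosed intranasally over 8 weeks, with 2 doses a week. What the letters DRA stand for and the age of the mice are not stated in the labels, which call the deficient mice both KO and KD. Chil4-deficient mice given PBS were not analysed here, so genotype and allergen both differ between the groups compared, and their effects cannot be told apart from these libraries alone.

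Airway allergens drive a type 2 response, in which epithelial IL-33 and the T helper cytokines IL-4, IL-5 and IL-13 act on macrophages, eosinophils and epithelium. Macrophages under IL-4 and IL-13 turn on a set of secreted products that includes Retnla, Arg1 and the chitinase-like proteins Chil3 and Chil4 (Ym1 and Ym2), which resemble chitinases but do not cut chitin. Antigen-presenting cells show peptides on MHC class II to helper T cells, and both the class II proteins and the complement protein C1q are abundant in dendritic cells and interstitial macrophages of the lung.

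The short stretches of promoter shown here are those of the class II genes and of Retnla, among the genes past the test, together with those of the probe target Chil4 and its neighbour Chil3. They are RefSeq sequences of the GRCm38.p6 assembly, 5′ to 3′ on the gene's own strand, and they lie before the RefSeq start of the gene. The entry of H2-DMb2 is not shown, since it begins from a start inside the annotated gene. Capitals in the class II promoters mark TGATTGG, the core of the Y box, an element of class II promoters, and capitals in the Retnla promoter mark TTC and GAA spaced by 4 bases of any kind, the letters of a STAT6-type site.
H2-Aa (chr17:34287824-34287923, minus strand): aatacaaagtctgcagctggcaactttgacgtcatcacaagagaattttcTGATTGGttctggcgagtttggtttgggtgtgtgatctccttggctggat
H2-Eb1 (chr17:34305767-34305866, plus strand): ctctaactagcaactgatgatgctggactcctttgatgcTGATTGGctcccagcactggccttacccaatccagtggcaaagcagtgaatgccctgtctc
H2-DMb1 (chr17:34153091-34153190, plus strand): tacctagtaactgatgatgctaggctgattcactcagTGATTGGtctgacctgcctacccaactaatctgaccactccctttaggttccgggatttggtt
Retnla (chr16:48842439-48842538, plus strand): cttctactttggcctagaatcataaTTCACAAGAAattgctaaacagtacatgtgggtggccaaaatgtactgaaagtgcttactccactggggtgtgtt
The TGATTGG match began 50 bases before the RefSeq start in H2-Aa, 61 in H2-Eb1 and 63 in H2-DMb1. On either strand of the 250 bases before the start that an entry is given for, which can lie inside a gene, TGATTGG was found in 5 of the 7 class II list genes with a promoter entry, and in 7.23% of all 32851 promoters. TTC and GAA at that spacing were found in 5 of the 15 genes of the alternative macrophage list with an entry, and in 5.85% of all promoters. A match describes these letters and is no evidence of a bound site.

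Chil4 and Chil3 lie on the same chromosome, and their promoters are shown to describe how alike these stretches are. Capitals mark the bases that differ in the alignment of the pair.
Chil4 (chr3:106219508-106219627, minus strand): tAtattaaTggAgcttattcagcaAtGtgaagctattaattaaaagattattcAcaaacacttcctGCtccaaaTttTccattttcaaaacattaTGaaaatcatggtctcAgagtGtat
Chil3 (chr3:106167565-106167683, minus strand): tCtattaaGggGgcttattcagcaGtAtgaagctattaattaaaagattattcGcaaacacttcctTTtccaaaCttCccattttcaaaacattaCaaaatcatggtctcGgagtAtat
Over 220 aligned bases before the annotated starts, 201 were identical (91.4%). These bases lie outside the annotated transcripts, so their likeness does not show what a probe binds. The labels do not say which stretch of the transcript the Chil4 probe binds, so whether it lies inside or outside the altered part of the gene, or also binds Chil3, was not tested.

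The Chil4 probe went against the label KO in these libraries. It read 255026, 15404, 11015, 57356 and 32588 CPM (counts scaled to a fixed library total, with trimmed mean of M values, TMM, factors) in the libraries labelled KO_DRA 8 to 12, against 9893 and 8353 CPM in B6_PBS. All 5 libraries labelled KO_DRA lay above both B6_PBS libraries, and the library labelled KO_DRA 8 lay above all 5 B6_DRA libraries, which read 30077 to 200206 CPM. The mean difference in log2 CPM between KO_DRA and B6_PBS was 2.07, with an exact two-sided permutation p of 0.143 where 0.0476 is the smallest the design allows, and it was 1.38 without the library labelled KO_DRA 8. The ratio of the Chil4 to the Chil3 probe was 0.771 to 0.834 in the libraries labelled KO_DRA and 0.802 to 0.835 in B6_PBS. Every direction given for KO_DRA therefore rests on the label.

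Total counts per library ran from 320290 to 673201. The library labelled KO_DRA 8 stood apart from the other 4 of its group: Chil3, Chil4 and Retnla took 43.6% of its counts, against 4.80% to 18.2% in KO_DRA 9 to 12 and 2.79% and 3.11% in B6_PBS. On the first principal component over all 12 libraries it scored 13.6, where KO_DRA 9 to 12 scored -12.9 to -0.11, the B6_DRA libraries -2.54 to 13.8, and the B6_PBS libraries -18.5 and -17.2. Endothelial Cdh5 read 1441 to 3392 CPM in KO_DRA and 3868 and 3431 CPM in B6_PBS. It is a vessel gene, and of the airway epithelial list 1 gene was measured, so the lung label was not tested.

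Of 665 genes tested, 20 were higher in KO_DRA than in B6_PBS and 0 were lower, which is 3.01% of the genes tested. The test was edgeR's quasi-likelihood F test over all 12 libraries, two-sided, with Benjamini-Hochberg adjustment over the 665 genes and a threshold of 0.05, and "rose" below refers to it. The 20 were class II genes (H2-Aa, H2-Ab1, H2-Eb1, H2-DMb1, H2-DMb2 and Cd74), the C1q chains (C1qa, C1qb and C1qc), the chemokines Ccl8 and Ccl20, the receptors and integrins Ctla4, Cxcr6, Itga4 and Itgb7, and Nfatc2, Retnla, Pglyrp1, S100a4 and Scin. At an unadjusted p under 0.05, 139 genes were higher and 51 lower, and the median log2 fold change over all genes was 0.02. Without the library labelled KO_DRA 8, 9 of 664 genes passed (1.36%), all higher and all among the 20: Retnla, Ccl8, Ctla4, C1qa, C1qb, C1qc, Pglyrp1, H2-Eb1 and H2-Ab1. Their edgeR adjusted p were then 0.0292 to 0.0305, and those of the other 11 genes 0.0518 to 0.101. The calls depended on single libraries: edgeR called 0 genes without B6_PBS 1, B6_PBS 2, KO_DRA 11 or KO_DRA 12, 2 without KO_DRA 9, and 79 without KO_DRA 10. At an unadjusted p under 0.05 those 4 fits with no call held 65, 93, 163 and 160 genes. With only the 7 libraries of the 2 groups in the fit, edgeR called 0 genes, with 137 at an unadjusted p under 0.05, and DESeq2 on all libraries called 56, 55 of them higher.

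B6_DRA against B6_PBS passed for 278 genes, 41.8% of those tested, of which 160 were higher (24.1%) and 118 lower (17.7%). Both comparisons use the same 2 B6_PBS libraries, so their fold changes are set side by side here and are not independent. The B6_DRA calls also needed both controls, with 0 by edgeR without either B6_PBS library (190 and 244 genes at an unadjusted p under 0.05). Their split moved with the scaling, to 163 higher and 72 lower with housekeeping probes, 57 and 222 with library size alone, and 169 and 61 with the authors' scaled values. The direct test of KO_DRA against B6_DRA passed for 0 of 665 genes (0%) with edgeR, with 36 higher and 48 lower at an unadjusted p under 0.05 and a smallest adjusted p of 0.313. DESeq2 called 1, Ccl24. Without the library labelled KO_DRA 8 that direct test passed for 120 of 664 genes (18.1%), 30 higher (4.52%) and 90 lower (13.6%), so the absence of calls rests on that library.

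**Figure D1:**
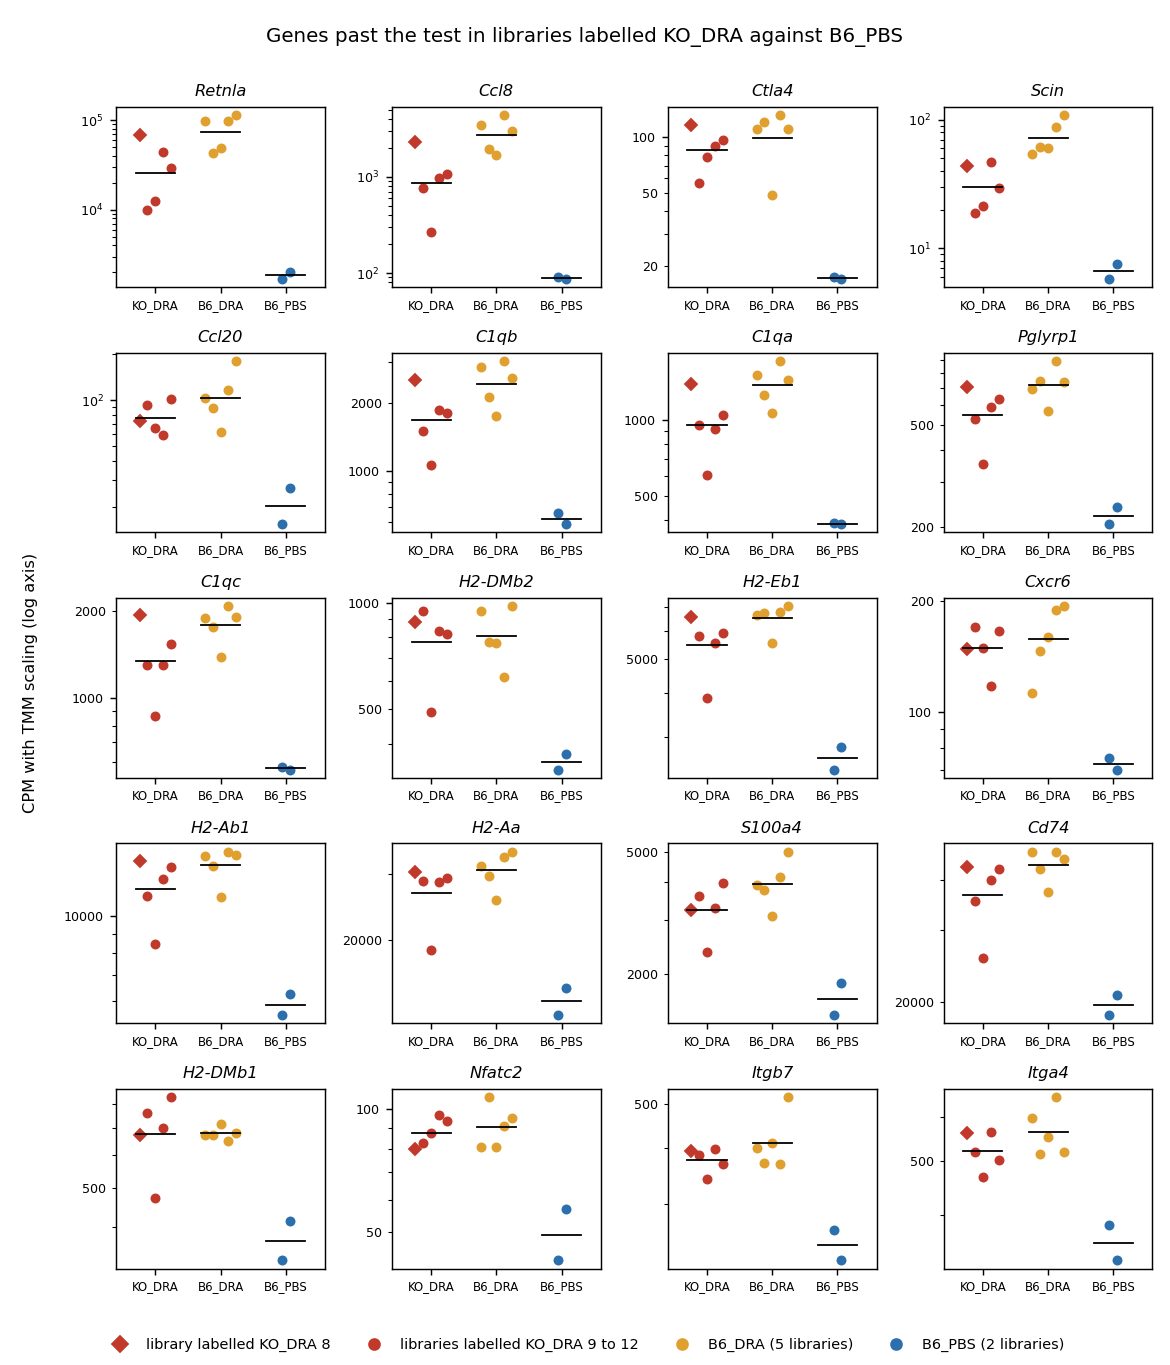
CPM with TMM scaling on a log axis for each of the 20 genes past the test, in the libraries labelled KO_DRA, in B6_DRA and in B6_PBS; each point is 1 library, the diamond is the library labelled KO_DRA 8, and black lines are geometric means. In every panel the 5 KO_DRA points lie above both B6_PBS points, as for 153 of the 665 genes tested (23%). KO_DRA 10 is the lowest KO_DRA point in 14 of the 20.

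Transcripts for class II antigen presentation were higher in KO_DRA lungs than in B6_PBS lungs. Of 9 measured genes of the class II list, 6 rose and 0 fell, beside 3.01% and 0% of all genes tested. The list median log2 fold change was 0.99, beside 0.02 over all genes. H2-Aa and H2-Ab1 encode the chains of the I-A molecule. H2-Aa read 30393, 28802, 18725, 28573 and 29229.8 CPM in KO_DRA 8 to 12, against 12552 and 14851 CPM in B6_PBS. H2-Ab1 read 13977, 11300.2, 8436, 12564 and 13446 CPM in KO_DRA, against 5500.1 and 6243 CPM in B6_PBS. The groups did not overlap for either gene, and KO_DRA 10 was the lowest of its group for both. The log2 fold changes were 0.99 ± 0.22 (SE; edgeR adjusted p = 0.0368) for H2-Aa and 1.02 ± 0.20 (adjusted p = 0.0342) for H2-Ab1.

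H2-Eb1, the I-E beta chain, averaged 5552 ± 1006 CPM in KO_DRA (SD, n = 5) and 2622 ± 271 CPM in B6_PBS (SD, n = 2), a log2 fold change of 1.08 ± 0.19 (edgeR adjusted p = 0.0342). Cd74, the invariant chain that occupies the class II groove until peptide is loaded, read 42936, 35339.5, 25649.5, 39993 and 42524 CPM in KO_DRA, against 18556 and 20815 CPM in B6_PBS (log2 fold change 0.92, edgeR adjusted p = 0.0478). The beta chains of the peptide-loading factor H2-DM also rose: H2-DMb1 by 0.88 and H2-DMb2 by 1.16 on the log2 scale (edgeR adjusted p = 0.0342 and 0.0342). H2-DMb1 and H2-DMb2 are close paralogs, so their probes may share signal. The 3 list members that did not pass were H2-DMa, the partner chain of H2-DMb (log2 fold change 0.65, edgeR adjusted p = 0.062), H2-Ob, a chain of the H2-DM modulator H2-O (0.94, adjusted p = 0.0954, named after its values were seen), and Ctss, the protease that trims the invariant chain (1.39, adjusted p = 0.165). All 9 genes had every KO_DRA library above both B6_PBS libraries, as did 153 of the 665 genes tested (23%).

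The class II changes of the 2 genotypes stand side by side as follows, without a test of likeness. H2-DMb1, named in part because this difference was small, differed from B6_PBS by 0.88 in KO_DRA and by 0.86 in B6_DRA, and the direct difference between KO_DRA and B6_DRA was 0.02 ± 0.13. For H2-Ab1 the corresponding values were 1.02, 1.22 and -0.20 ± 0.14, and for Ctss 1.39, 2.18 and -0.79 ± 0.42. Of the 9 genes, 9 were higher in B6_DRA than in B6_PBS by that test, beside 24.1% of all genes, with a list median of 1.17. Without the library labelled KO_DRA 8 the list median was 0.95 and 2 genes passed, beside 1.36% of all genes. Under scaling by library size alone the list median was 0.66 and 0 passed.

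Of 8 measured complement genes, 3 rose and 0 fell, beside 3.01% and 0% of all genes tested, with a list median of 1.03. The 3 were the A, B and C chains of C1q, the recognition unit of the classical pathway, which macrophages and dendritic cells make. C1qb read 2506, 1495, 1067, 1852 and 1795 CPM in KO_DRA, against 655 and 588 CPM in B6_PBS. C1qa read 1389, 956, 605, 920.0 and 1047 CPM in KO_DRA, against 388 and 385 CPM in B6_PBS. C1qc read 1938, 1302, 866, 1297 and 1539 CPM in KO_DRA, against 574 and 563 CPM in B6_PBS. For each chain KO_DRA 8 was the highest and KO_DRA 10 the lowest of the group, and KO_DRA 10 still lay above both B6_PBS libraries. The log2 fold changes were 1.35 ± 0.28 for C1qa, 1.49 ± 0.31 for C1qb and 1.29 ± 0.26 for C1qc, each with an edgeR adjusted p of 0.0342. All 3 passed without the library labelled KO_DRA 8 too, with log2 fold changes of 1.19, 1.32 and 1.14. No complement gene passed without KO_DRA 9, KO_DRA 11 or KO_DRA 12, or under scaling by library size alone. Without KO_DRA 10, 4 of the 8 passed, beside 79 of all genes. The list median was 1.02 without B6_PBS 1 and 0.97 without B6_PBS 2. In B6_DRA the same chains differed from B6_PBS by 1.85, 1.99 and 1.67.

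The other complement genes did not pass. C3, the central component, had a log2 fold change of 0.77 ± 0.28 (edgeR adjusted p = 0.137), with 4809.7 to 10247 CPM in KO_DRA and 4233 and 3922 CPM in B6_PBS. C5ar1, the receptor for the fragment C5a, was the only one of the 8 with an estimate below 0, at -0.36, and it fell in B6_DRA (log2 fold change -0.87, adjusted p = 0.0171). Each of the 7 others had all 5 KO_DRA libraries above both B6_PBS libraries, as did 153 of the 665 genes tested (23%). The 3 C1q genes are also the only members of the monocyte and interstitial macrophage list, 18 genes measured, that rose, beside 3.01% of all genes. In whole lung, more cells of a type and more RNA per cell cannot be told apart.

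Ctla4, Cxcr6 and Nfatc2 rose, of which Cxcr6 and Nfatc2 belong to no gene list used here. Ctla4, the inhibitory receptor of activated and regulatory T cells, read 116, 56.2, 77.6, 89.6 and 96.2 CPM in KO_DRA and 48.5 to 131 CPM in B6_DRA, against 17.4 and 17.1 CPM in B6_PBS. KO_DRA and B6_DRA overlapped, while every library of both lay above B6_PBS. The log2 fold change was 2.31 ± 0.43 in KO_DRA and 2.58 ± 0.43 in B6_DRA (edgeR adjusted p = 0.0342 and 0.00482). Cxcr6, a chemokine receptor of memory T cells in tissue, read 148, 171, 149, 118 and 166 CPM in KO_DRA, against 75.3 and 70.1 CPM in B6_PBS (log2 fold change 1.05 ± 0.23, edgeR adjusted p = 0.0368). Nfatc2, a transcription factor downstream of antigen receptors, rose by 0.82 ± 0.19 (edgeR adjusted p = 0.0461). KO_DRA 8 was not the highest of its group for Cxcr6 or Nfatc2, in contrast to Retnla and Ccl8 below.

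Itga4 and Itgb7, which pair as the integrin α4β7 of lymphocytes and eosinophils, rose in KO_DRA by 0.55 ± 0.13 and 0.63 ± 0.15 on the log2 scale (edgeR adjusted p = 0.0461 and 0.0461), the smallest changes among the 20. Itga4 read 469.6 to 564 CPM in KO_DRA, against 384 and 332 CPM in B6_PBS. They were the 2 of 16 adhesion genes to pass, beside 3.01% of all genes, with a list median of 0.20.

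Of 20 costimulation genes, Ctla4 alone rose, beside 3.01% of all genes, and the list median was 0.60. Without KO_DRA 10, 2 of the 20 passed, beside 79 of all genes. Icos, a costimulatory receptor of activated T cells, read 182, 133, 99.0, 89.6 and 152 CPM in KO_DRA, against 63.8 and 73.9 CPM in B6_PBS, without overlap (log2 fold change 0.93, edgeR adjusted p = 0.115). Cd40lg, by which helper T cells engage B cells and dendritic cells, had a log2 fold change of 1.15 (adjusted p = 0.132). The T cell markers measured were 3, and none passed in KO_DRA (list median 0.62) or in B6_DRA (0.47); their summed level was 303, 274, 213, 236 and 281 CPM in KO_DRA 8 to 12, against 199 and 155 CPM in B6_PBS. Cd247, the zeta chain of the T cell receptor complex, had 101 to 147 CPM in KO_DRA and 81.1 and 72.0 CPM in B6_PBS (log2 fold change 0.62, edgeR adjusted p = 0.137). The part of T cell number in these values was not tested.

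Of 8 lymphoid chemokine and receptor genes and 2 B cell genes, with Cxcr5 in both lists, 0 passed. The list medians were 0.22 and 0.84, beside 0.02 over all genes. Without KO_DRA 10, 3 of the 8 and 2 of the 2 passed, all higher, beside 79 of all genes. Ms4a1, the B cell antigen CD20, read 613, 1036, 297, 689 and 612 CPM in KO_DRA, against 355 and 353 CPM in B6_PBS, and the groups overlapped through KO_DRA 10 (log2 fold change 0.88, edgeR adjusted p = 0.169). Cxcr5, the receptor that leads B cells to follicles, had a log2 fold change of 0.81 (adjusted p = 0.137), without overlap. Ccl19, a chemokine of T cell zones, read 80.2 to 178 CPM in KO_DRA and 40.6 and 73.9 CPM in B6_PBS (log2 fold change 1.21, edgeR adjusted p = 0.0954). Cxcl13, a chemokine of B cell follicles, named after its values were seen, read 194, 163, 71.8, 33.0 and 126 CPM in KO_DRA, on both sides of the 92.7 and 129 CPM in B6_PBS (log2 fold change 0.08).

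Several products of IL-4 and IL-13 responsive macrophages had large fold changes and a wide spread among libraries. Of 19 genes of the alternative macrophage list, 2 rose (Retnla and Ccl8) and 0 fell, against 15 and 0 in B6_DRA. Of all genes tested, 3.01% were higher in KO_DRA and 24.1% in B6_DRA. Without KO_DRA 10, 4 of the 19 passed in KO_DRA, beside 79 of all genes. With all libraries, the list median was 1.18 in KO_DRA and 2.33 in B6_DRA. Retnla, the secreted protein RELMα, read 68208, 9884, 12494, 44636 and 28856 CPM in KO_DRA 8 to 12, against 1692 and 2013 CPM in B6_PBS. The lowest KO_DRA library, KO_DRA 9, still lay above both B6_PBS libraries, and its group spanned a wide range. The log2 fold change of Retnla was 4.15 ± 0.85 (edgeR adjusted p = 0.0342), and 3.69 without the library labelled KO_DRA 8 (adjusted p = 0.0292). In B6_DRA, Retnla read 98222, 42792, 48545, 98788 and 112791 CPM and its log2 fold change was 5.44.

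Ccl8, a chemokine for CCR8-bearing type 2 helper cells and other leukocytes, read 2314, 772, 268, 965 and 1058 CPM in KO_DRA, against 90.8 and 87.2 CPM in B6_PBS. Its log2 fold change was 3.59 ± 0.76 (edgeR adjusted p = 0.0342), and 3.10 without the library labelled KO_DRA 8. The direct difference between KO_DRA and B6_DRA was -1.43 ± 0.45, with an unadjusted p of 0.00841 and an edgeR adjusted p of 0.321. Ccl20, the ligand of CCR6, read 73.0, 93.7, 66.0, 59.0 and 102 CPM in KO_DRA, against 15.5 and 26.5 CPM in B6_PBS, and the library labelled KO_DRA 8 lay inside the range of the other 4. It rose by 1.89 ± 0.44 (edgeR adjusted p = 0.0453), and had an adjusted p of 0.0661 without that library. Ccl8 and Ccl20 were the only ones of 16 type 2 chemokine and receptor genes to pass, where 14 passed in B6_DRA. All 14 were higher in B6_DRA. Of all genes tested, 3.01% were higher in KO_DRA and 24.1% in B6_DRA. The list medians were 1.40 in KO_DRA and 2.17 in B6_DRA. Without KO_DRA 10, 4 of the 15 genes then tested passed in KO_DRA, beside 79 of all genes.

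The other 17 genes of the alternative macrophage list did not pass, and their estimates ran from below 0 to the largest of the list. Cd163, a scavenger receptor named after its values were seen, read 141, 56.2, 69.9, 73.1 and 64.1 CPM in KO_DRA, against 81.1 and 106 CPM in B6_PBS (log2 fold change -0.21). Mmp12, macrophage elastase, read 8395, 253, 138, 2187 and 975 CPM in KO_DRA 8 to 12, against 114 and 41.7 CPM in B6_PBS. Its log2 fold change of 4.94 ± 1.91, the largest of the list, had an edgeR adjusted p of 0.142. KO_DRA 9 and KO_DRA 10 lay nearest to the higher B6_PBS library, and KO_DRA 8, 11 and 12 lay further above it. Alox15, the lipoxygenase of IL-13 treated macrophages and eosinophils, followed the same split, with 442, 60.0, 52.4, 208 and 222 CPM in KO_DRA, against 23.2 and 34.1 CPM in B6_PBS (log2 fold change 2.75, edgeR adjusted p = 0.137).

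Chil3, which encodes Ym1, read 330699, 19597, 13691, 68814 and 40683 CPM in KO_DRA, against 11848 and 10419 CPM in B6_PBS (log2 fold change 3.09 ± 1.29, edgeR adjusted p = 0.158), and 1.68 without the library labelled KO_DRA 8. Arg1, the arginase of these macrophages, named here after its values were seen, read 933, 71.2, 52.4, 318 and 85.5 CPM in KO_DRA, against 46.4 and 45.5 CPM in B6_PBS. Its log2 fold change was 2.66 (edgeR adjusted p = 0.193) and 1.50 without the library labelled KO_DRA 8. The lectin Cd209e lay under background in both B6_PBS libraries, background being the mean plus 2 SD of the negative control probes. It read 45.6, 9.37, 7.76, 47.2 and 10.7 CPM in KO_DRA and 105, 64.4, 53.1, 136 and 92.0 CPM in B6_DRA. KO_DRA 9, 10 and 12 lay under background too, so no fold is given for KO_DRA (edgeR adjusted p = 0.137), while all 5 B6_DRA libraries lay above it. Trem2, a lipid-sensing receptor of macrophages, had a log2 fold change of 2.38 (edgeR adjusted p = 0.142), and Mrc1, the mannose receptor, of 0.84 (adjusted p = 0.184).

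**Figure D2:**
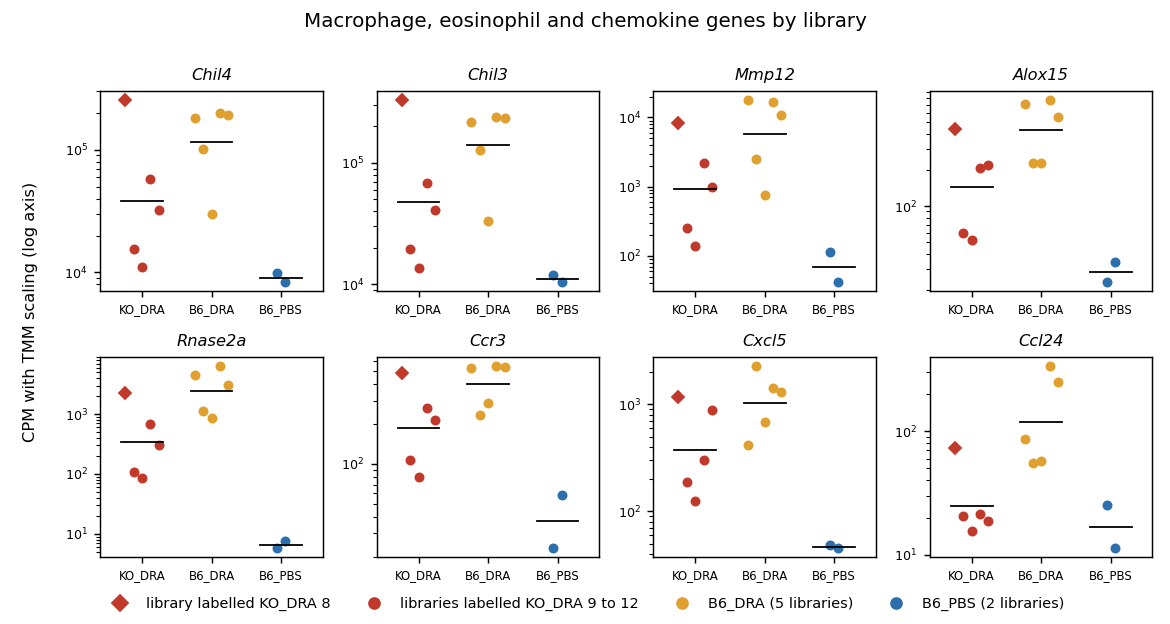
CPM with TMM scaling on a log axis for 8 genes of the alternative macrophage, eosinophil and chemokine lists, in the libraries labelled KO_DRA, in B6_DRA and in B6_PBS; each point is 1 library, the diamond is the library labelled KO_DRA 8, and black lines are geometric means. For Chil4, Chil3, Mmp12 and Alox15 the libraries KO_DRA 9 and 10 sit nearest B6_PBS, and for Ccl24 KO_DRA 9 to 12 sit between the B6_PBS points.

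Ccl24, eotaxin-2, which draws eosinophils, was a type 2 gene whose level in KO_DRA 9 to 12 stayed near B6_PBS, close to background. It read 73.0, 20.6, 15.5, 21.2 and 18.7 CPM in KO_DRA 8 to 12 and 86.7, 55.4, 57.8, 335 and 247 CPM in B6_DRA, against 25.1 and 11.4 CPM in B6_PBS. KO_DRA 9 to 12 lay within the B6_PBS range, and the library labelled KO_DRA 8 lay within the B6_DRA range. KO_DRA 9 to 12 held 11, 8, 9 and 7 counts, where background was 6.38, 6.74, 8.78 and 5.58 counts. B6_PBS 1 and 2 held 13 and 6 counts, where it was 6.41 and 6.57. The log2 fold change against B6_PBS was 0.69 ± 0.97 in KO_DRA (edgeR adjusted p = 0.628) and 3.06 in B6_DRA (adjusted p = 0.0306). The direct difference between KO_DRA and B6_DRA was -2.37 ± 0.63, with an unadjusted p of 0.00276 and an edgeR adjusted p of 0.313. Ccl12 and Ccl17, other chemokines of allergic lung, had log2 fold changes of 1.47 and 1.67 in KO_DRA (adjusted p = 0.105 and 0.137) and 2.02 and 2.33 in B6_DRA.

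Of 7 measured eosinophil genes, 0 passed in KO_DRA and 5, all higher, in B6_DRA, and the list medians were 2.19 and 2.94. Of all genes tested, 3.01% were higher in KO_DRA and 24.1% in B6_DRA. Without KO_DRA 10, 5 of the 7 passed, beside 79 of all genes. Leaving out any other KO_DRA library gave 0, as did housekeeping scaling. Scaling by library size alone gave 1, beside 4 of all genes. Rnase2a, an eosinophil ribonuclease, read 2241, 107, 87.3, 675 and 307 CPM in KO_DRA, against 5.80 and 7.58 CPM in B6_PBS, where both libraries lay under background. It was at least 27.1-fold higher in KO_DRA, and at least 16.9-fold higher over KO_DRA 9 to 12, with an edgeR adjusted p of 0.0999. In B6_DRA it was at least 196-fold higher (adjusted p = 0.0156). Prg2, major basic protein, was also under background in B6_PBS, and was at least 5.34-fold higher in KO_DRA (edgeR adjusted p = 0.115) and at least 15.3-fold higher in B6_DRA.

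Ccr3, the eotaxin receptor, read 483, 107, 79.6, 267 and 214 CPM in KO_DRA, against 23.2 and 58.8 CPM in B6_PBS (log2 fold change 2.47 ± 0.75, edgeR adjusted p = 0.115). Every KO_DRA library lay above both B6_PBS libraries for Rnase2a, Prg2, Ccr3 and the adenosine receptor Adora3. The same held for 153 of the 665 genes tested (23%). Il5ra, a chain of the IL-5 receptor, read 7.76 to 45.6 CPM in KO_DRA and overlapped B6_PBS through KO_DRA 10. The summed level of the 7 genes was 3721, 598, 477, 1382 and 975 CPM in KO_DRA 8 to 12, against 346 and 364 CPM in B6_PBS.

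Among type 2 cytokines and receptors, 0 of 10 passed in KO_DRA and 4, all higher, in B6_DRA, with list medians of 0.30 and 0.76. Of all genes tested, 3.01% were higher in KO_DRA and 24.1% in B6_DRA. Without KO_DRA 10, 2 passed, beside 79 of all genes. Il1rl1, the IL-33 receptor ST2, read 258, 159, 153, 304 and 240.4 CPM in KO_DRA, against 98.5 and 87.2 CPM in B6_PBS, without overlap, and its log2 fold change of 1.26 ± 0.32 had an edgeR adjusted p of 0.0678. Its ligand Il33, an epithelial alarmin, read 2950.4, 1431, 1339, 1767 and 2263 CPM in KO_DRA and 1964 to 3537 CPM in B6_DRA, against 1321 and 1111 CPM in B6_PBS. Its log2 fold change was 0.68 in KO_DRA (edgeR adjusted p = 0.176) and 1.35 in B6_DRA (adjusted p = 0.0171). Il13 read 61.6, 18.7, 7.76, 28.3 and 21.4 CPM in KO_DRA and lay under background in B6_PBS and in KO_DRA 10 (edgeR adjusted p = 0.164). Il5, Il9 and Il25 did not pass the filter on low counts.

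Neutrophil-drawing chemokines were high in some KO_DRA libraries. Cxcl5, made by lung epithelium, read 1183, 187, 126, 299.6 and 879 CPM in KO_DRA, against 48.3 and 45.5 CPM in B6_PBS, without overlap (log2 fold change 3.50 ± 1.06, edgeR adjusted p = 0.115). Cxcl1 had a log2 fold change of 2.03 (adjusted p = 0.155), and Csf2, the cytokine GM-CSF, of 1.32 (adjusted p = 0.137). Of the 6 measured genes of that axis 0 passed in KO_DRA, with a list median of 1.45, and 4 passed in B6_DRA, all higher. Of all genes tested, 3.01% were higher in KO_DRA and 24.1% in B6_DRA. Without KO_DRA 10, 2 of the 5 then tested passed in KO_DRA, beside 79 of all genes. Of 11 genes of the neutrophil itself, Pglyrp1 alone passed, and the list median was 0.06. Cxcr1, a receptor for such chemokines, read 481, 16.9, 21.3, 18.9 and 10.7 CPM in KO_DRA 8 to 12 and 72.6, 311, 20.8, 103 and 111 CPM in B6_DRA 3 to 7, against 17.4 and 20.9 CPM in B6_PBS (log2 fold change 2.50 in KO_DRA, edgeR adjusted p = 0.297). Its log2 fold change was -0.15 without the library labelled KO_DRA 8. It was high in that library, and KO_DRA 9 to 12 overlapped B6_PBS.

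Pglyrp1, a secreted peptidoglycan-binding protein of granulocytes, read 702, 527, 353, 587 and 630.5 CPM in KO_DRA, against 205 and 239 CPM in B6_PBS (log2 fold change 1.33 ± 0.25, edgeR adjusted p = 0.0342). S100a4, a calcium-binding protein of motile leukocytes and fibroblasts, rose by 0.97 ± 0.22 (edgeR adjusted p = 0.039). Scin, an actin-severing protein, lay under background in both B6_PBS libraries and was at least 2.41-fold higher in KO_DRA (edgeR adjusted p = 0.0486) and at least 5.77-fold higher in B6_DRA. Scin read 43.3, 18.7, 21.3, 47.2 and 29.4 CPM in KO_DRA and 54.4, 60.8, 60.1, 88.3 and 108 CPM in B6_DRA, so every B6_DRA library lay above every KO_DRA library, and that direct difference was -1.21 ± 0.29 with an unadjusted p of 0.00145 and an edgeR adjusted p of 0.313. Il6 lay under background in B6_PBS, read 23.3 to 31.9 CPM in KO_DRA and did not pass (edgeR adjusted p = 0.0999), and Tnf, at 35.4 to 66.1 CPM in KO_DRA and 61.8 and 114 CPM in B6_PBS, had a log2 fold change of -0.85 (adjusted p = 0.137).

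The dendritic cell list had 0 of 11 genes past the test and a median of 0.78, and the Fc receptor list 0 of 8 and 0.77. Without KO_DRA 10, 2 genes of each list passed, beside 79 of all genes. Fcgr2b, the inhibitory IgG receptor, read 2497, 1126, 798, 1342 and 1424 CPM in KO_DRA, against 562 and 533 CPM in B6_PBS (log2 fold change 1.39 ± 0.39, edgeR adjusted p = 0.0999). The alveolar macrophage list had 0 of 7 genes past the test, and 1 of 7 without KO_DRA 10. Its median of 0.89 became 0.10 without the library labelled KO_DRA 8. Fabp4, a lipid-binding protein of these cells, read 1829, 193, 237, 540.2 and 192 CPM in KO_DRA, against 303 and 324 CPM in B6_PBS, and its log2 fold change was 0.93 with and -0.11 without that library. Itgax, the integrin CD11c of alveolar macrophages and dendritic cells, had a log2 fold change of 1.47 (edgeR adjusted p = 0.181), and Marco, a scavenger receptor, of -0.42 (adjusted p = 0.763).

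Of 12 measured class I genes, 0 passed, 11 had estimates above 0, and 7 had every KO_DRA library above both B6_PBS libraries. Over all 665 genes tested those last 2 counts were 347 and 153 (23%). Without KO_DRA 10, 3 of the 12 passed, beside 79 of all genes. H2-K1, a classical class I chain, read 20342 to 24652 CPM in KO_DRA, against 15009 and 16392 CPM in B6_PBS (log2 fold change 0.54 ± 0.15, edgeR adjusted p = 0.0999). H2-T23, which encodes Qa-1, had a log2 fold change of 0.44 and the immunoproteasome subunit Psmb8 of 0.42 (adjusted p = 0.111 and 0.137). The list median was 0.34 in KO_DRA and 0.29 in B6_DRA.

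Among 8 interferon-stimulated genes, 0 passed, 3 had estimates above 0 (347 of all 665 genes tested did), and the list median was -0.21. Without KO_DRA 10, 1 of the 8 passed, beside 79 of all genes. In B6_DRA 1 rose and 4 fell, beside 24.1% and 17.7% of all genes, with a median of -0.44. The 2 chemokines of the list went the other way from its median. Cxcl9 read 123, 163, 77.6, 44.8 and 281 CPM in KO_DRA, against 36.7 and 37.9 CPM in B6_PBS, and Cxcl10 read 75.2, 129, 144, 68.4 and 195 CPM in KO_DRA, against 50.2 and 55.0 CPM in B6_PBS. Both draw CXCR3-bearing T cells, neither overlapped B6_PBS, and KO_DRA 12 was the highest for both. Their log2 fold changes were 1.87 ± 0.60 and 1.21 ± 0.40 (edgeR adjusted p = 0.126 and 0.132). Isg15, a ubiquitin-like antiviral protein, had a log2 fold change of -0.45 in KO_DRA (adjusted p = 0.183) and fell in B6_DRA (-0.81, adjusted p = 0.0204).

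**Figure D3:**
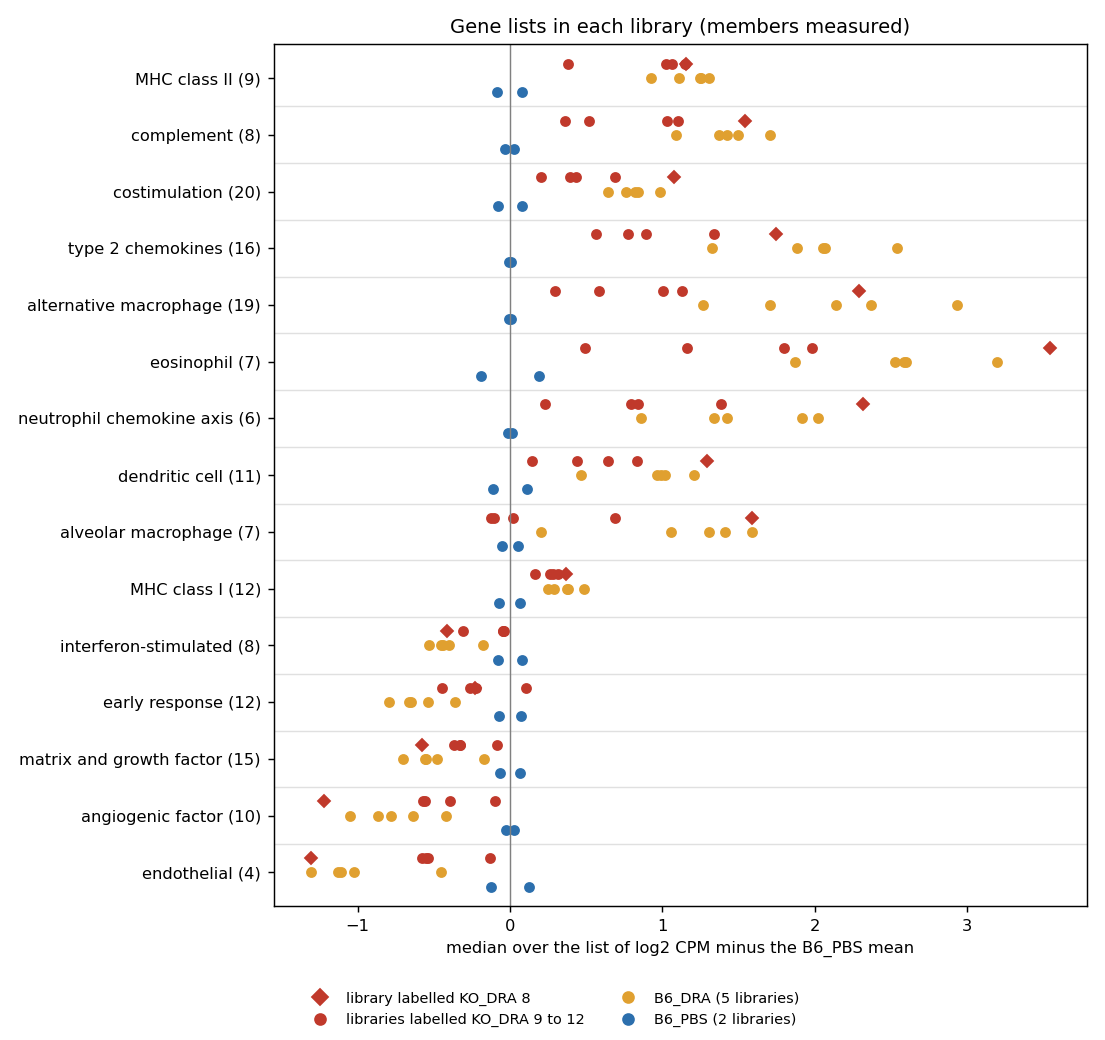
Each point is 1 library's median, over the measured genes of a list, of log2 CPM minus the B6_PBS mean, with KO_DRA above B6_DRA above B6_PBS in every row and the diamond marking the library labelled KO_DRA 8; numbers in brackets count the genes. The class II medians of 4 of the 5 KO_DRA libraries, at 1.03 to 1.15, lie within the B6_DRA range of 0.92 to 1.31, and KO_DRA 10 is at 0.38.

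The 5 libraries labelled KO_DRA differed among themselves in how far each list moved from B6_PBS. The class II median was 1.15, 1.03, 0.38, 1.07 and 1.15 in KO_DRA 8 to 12, against 0.92 to 1.31 in B6_DRA. The alternative macrophage median was 2.29, 0.59, 0.30, 1.13 and 1.01 in KO_DRA, against 1.27 to 2.94 in B6_DRA, so that 4 of the 5 KO_DRA libraries lay below every B6_DRA library and KO_DRA 8 lay inside the B6_DRA range. The eosinophil median was 3.55, 1.16, 0.50, 1.98 and 1.80 in KO_DRA, against 1.87 to 3.20 in B6_DRA. KO_DRA 10 had the lowest value of its group and KO_DRA 8 the highest, or equal highest, in all 3 lists. These values are descriptions with no test, since the lists were chosen with results of these libraries known.

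No gene fell in KO_DRA against B6_PBS with all libraries in the fit. All 4 measured endothelial genes had a negative log2 fold change, with a list median of -0.55, beside 0.02 over all genes, and 3 had every KO_DRA library below both B6_PBS libraries, as did 110 of the 665 genes (16.5%). Tek, the angiopoietin receptor TIE2, read 1439, 2857, 3313, 2621 and 2431 CPM in KO_DRA, against 3926 and 3469 CPM in B6_PBS (log2 fold change -0.55 ± 0.25, edgeR adjusted p = 0.177). Thbd, thrombomodulin, read 3573, 5855, 7574, 5501 and 5506 CPM in KO_DRA, against 9658 and 7755 CPM in B6_PBS (-0.64 ± 0.26, adjusted p = 0.155). The library labelled KO_DRA 8 was the lowest for both and KO_DRA 10 the highest. Cdh5, the junction protein VE-cadherin, and Flt1, a VEGF receptor, had log2 fold changes of -0.52 and -0.56. All 4 genes fell in B6_DRA, beside 17.7% of all genes, with log2 fold changes there of -0.94 for Cdh5 and -0.95 for Flt1. The part of cell composition in these values was not tested.

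Of 10 angiogenic genes 1 had an estimate above 0, and of 15 matrix and growth factor genes 4, beside 347 of all 665 genes tested. Vegfa, the main endothelial growth factor, read 2590.2, 4845, 6319, 4461 and 4929 CPM in KO_DRA, against 7552 and 7120.3 CPM in B6_PBS (log2 fold change -0.66, edgeR adjusted p = 0.17). Kitl, stem cell factor, read 778, 1763, 2111, 1597 and 1576 CPM in KO_DRA, against 2776 and 2724 CPM in B6_PBS (log2 fold change -0.81 ± 0.30, adjusted p = 0.137). The list medians were -0.49 for the angiogenic genes and -0.34 for the matrix genes. In KO_DRA 0 passed in either list, and in B6_DRA 5 and 6 fell. Of all genes tested, 0% were lower in KO_DRA and 17.7% in B6_DRA. Without KO_DRA 10, 0 angiogenic genes and 1 matrix gene passed in KO_DRA, the latter lower, beside 79 of all genes in either direction. Col12a1, a collagen, read 31.9, 154, 204, 116 and 142 CPM in KO_DRA, against 369 and 313 CPM in B6_PBS (log2 fold change -1.39 ± 0.50, edgeR adjusted p = 0.137). Fn1, fibronectin, had an estimate above 0, which turned below 0 under scaling by library size alone, with 2002, 1014, 1442, 2130.2 and 1859 CPM in KO_DRA, against 1401 and 1278 CPM in B6_PBS (log2 fold change 0.33, adjusted p = 0.367). The protease Adamts9, the protease inhibitor Timp3, and Hpgd, which inactivates prostaglandins, had log2 fold changes of -0.89, -0.63 and -0.69. Every KO_DRA library lay below both B6_PBS libraries for each, as for 110 of the 665 genes tested (16.5%).

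The early response list holds transcription factors and other genes induced within minutes of stimulation. Of 12 genes, 0 passed in KO_DRA, while 1 rose and 5 fell in B6_DRA. Of all genes, 3.01% passed in KO_DRA and 41.8% in B6_DRA. The list medians were -0.0047 in KO_DRA and -0.64 in B6_DRA. By library the median was -0.23, -0.26, 0.10, -0.22 and -0.44 in KO_DRA 8 to 12, and -0.80 to -0.36 in B6_DRA. Without KO_DRA 10 the KO_DRA median was -0.22, and 1 gene passed, lower in KO_DRA, beside 79 of all genes in either direction. Fosb read 73.0, 107, 144, 56.6 and 69.5 CPM in KO_DRA and 52.4, 42.9, 43.9, 40.4 and 47.6 CPM in B6_DRA, against 145 and 135 CPM in B6_PBS. Every KO_DRA library lay above every B6_DRA library. Its log2 fold change against B6_PBS was -0.62 ± 0.29 in KO_DRA (edgeR adjusted p = 0.177) and -1.62 ± 0.29 in B6_DRA (adjusted p = 0.00723), and the direct difference was 0.99 ± 0.24, with an unadjusted p of 0.00168 and an adjusted p of 0.313. Cyr61, a matricellular protein, had a log2 fold change of -0.02 ± 0.30 in KO_DRA and -0.88 ± 0.29 in B6_DRA, and Nr4a1, an orphan nuclear receptor, of 0.23 and -0.70. Time from death to RNA, to which such genes respond, is not given in the labels, and its part in these values was not tested.

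**Figure D4:**
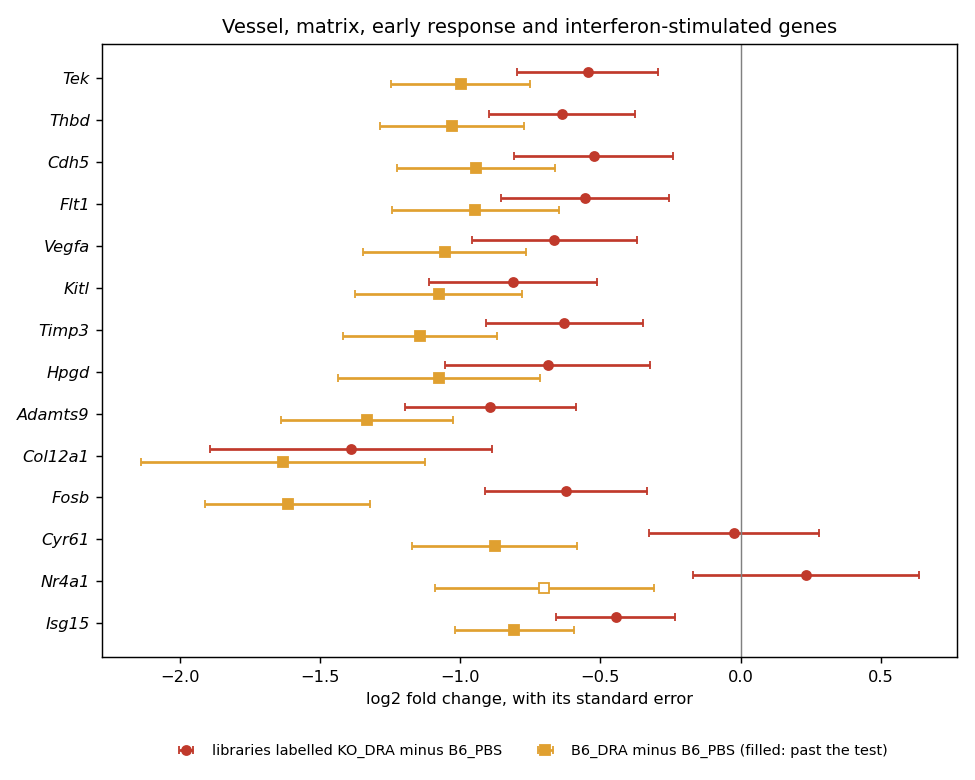
Log2 fold changes against B6_PBS with their standard errors for 14 genes, for the libraries labelled KO_DRA (circles, upper point of each row) and B6_DRA (squares, filled where past the edgeR test). No KO_DRA value passed, the KO_DRA estimate is nearer 0 than the B6_DRA estimate in every row, and Cyr61 and Nr4a1 in KO_DRA lie within 1 standard error of 0.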

How the data were processed

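The authors deposited raw whole-number counts per probe for 734 endogenous, 20 housekeeping, 8 negative and 6 positive control probes, with a lowest value of 1. Another table, and the series matrix, give a signal scaled by the authors: the same counts times 1 factor per library. R 4.2.0, edgeR and limma are listed, with no role, per the submitters' processing notes. Housekeeping probes were recognised from the deposited order; how background was handled is not stated.

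The test was edgeR's quasi-likelihood F test (version 4.0.16, R 4.3.3), on a mean per group over all 12 libraries (9 residual degrees of freedom), with TMM factors. The filter filterByExpr (min.count 10, min.total.count 15) left 665 endogenous genes. SE is the absolute log2 fold change divided by the root of F. Log2 CPM used a prior count of 2. Folds given as "at least" divide the group's geometric mean CPM by background in B6_PBS, the negative control mean plus 2 SD. The procedure was tested on simulated data. Total counts, 320290 to 673201 per library, set the precision of low probes; p-values measure the spread between these libraries. Replicate pairs all differed beyond sampling noise, the closest being B6_PBS 1 and 2 (chi-square 5.60 per degree of freedom).

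Alternatives were housekeeping scaling, library size alone, DESeq2 size factors, leaving out Chil3, Chil4 and Retnla, no filter, a background filter, DESeq2 1.42.0, limma-voom (limma 3.58.1), limma on log2 of the authors' signal plus 1, a fit on 7 libraries, and leaving out each library. Members and gene lists were chosen with earlier results of these data known. Named genes were the genes past the test with all libraries or without KO_DRA 8 (there up to 15 a direction), up to 5 members of each list by p against B6_PBS and up to 4 by p between KO_DRA and B6_DRA, the 10 smallest p of KO_DRA against B6_DRA, genes past the B6_DRA test with the smallest difference between the genotypes, and the chitinase-like genes. Names matched RefSeq symbols for 744 probes, a synonym for 9 and neither for 1. Sequences are RefSeq's, from 300-base promoter entries of GRCm38.p6.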

Additional observations from a re-analysis of the deposited data

Results flagged for a closer look

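In each gene and group of 5 libraries named in the report, the gap between the highest or lowest library and its nearest neighbour was set against the group's range. Of 166 such pairs, 18 passed the critical value for 5 samples, where chance gives about 1 in 20, and genes of 1 library are not independent.

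The library KO_DRA 10 was far below the others of its group for 3 class II genes. H2-Aa read 18725 CPM there, against 28573 to 30393 CPM in the other 4. H2-DMa read 1083 CPM, against 1559 to 1709.8 CPM. H2-DMb2 read 493 CPM, against 818 to 944 CPM. The library labelled KO_DRA 8 was far above its group for Ccl24, at 73.0 CPM against 15.5 to 21.2 CPM, for Cxcr1, at 481 CPM against 10.7 to 21.3 CPM, and for Cd163, at 141 CPM against 56.2 to 73.1 CPM.

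In B6_DRA, the library B6_DRA 5 was far from the others for 10 genes. It was the lowest for H2-Eb1 (5560.3 CPM), Ctla4 (48.5 CPM), Il33 (1964 CPM), Itgax (261 CPM), Fabp4 (213 CPM) and Il6 (13.9 CPM). It was the highest for the vessel and matrix genes Tek (2456 CPM), Thbd (6152 CPM), Kitl (1903 CPM) and Timp3 (5131 CPM). B6_DRA 3 was the lowest for C5ar1 (175 CPM), and B6_DRA 7 the highest for Psmb8 (2985 CPM).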

How the results depend on the processing

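The 20 genes higher in KO_DRA than in B6_PBS kept their direction under every alternative run, but their number changed: edgeR called 22 with housekeeping scaling, 4 with library size alone, 15 with DESeq2 size factors, with no filter or with a background filter, and 16 without Chil3, Chil4 and Retnla (where Retnla is not tested and 15 of the 20 passed). DESeq2 called 56, limma-voom 13, limma on the authors' scaled values 28 and edgeR on the 7 libraries alone 0. Leaving out 1 library gave 0 to 79 calls for KO_DRA against B6_PBS, 0 to 345 for B6_DRA against B6_PBS, and 0 to 120 for KO_DRA against B6_DRA. DESeq2 called 1 gene in KO_DRA against B6_DRA, Ccl24, named here after its value was seen. Library size alone moved the median log2 fold change over all genes to -0.29 in KO_DRA against B6_PBS, where housekeeping scaling gave 0.11. The Chil4 difference in log2 CPM was 2.15 with housekeeping scaling, 1.73 with library size alone and 1.38 to 2.52 with 1 library left out.

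Among single genes, Fabp4 had a log2 fold change of -0.11 without the library labelled KO_DRA 8 and up to 1.16 with another library left out. Cyr61, near 0, turned to 0.061 with housekeeping scaling and ran from -0.28 to 0.12 with 1 library left out. Nr4a1 turned to -0.026 with library size alone and ran from -0.12 to 0.45 with 1 library left out. Fn1 turned to -0.0093 and Cxcl13 to -0.29 with library size alone, Cxcl13 ran from -0.16 to 0.31 with 1 library left out, and Cxcr1 ran from -0.15 without the library labelled KO_DRA 8 to 2.78. The cause was not tested. No paired analysis was possible because replicate numbers are never shared between the groups. With 2 control libraries, low probes such as Rnase2a, Prg2 and Scin have only a bound in B6_PBS.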

Other observations

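Several lists of the panel showed no call in KO_DRA, where the median over all genes tested was 0.02. The Toll-like receptor and NF-κB list had 0 of 18 genes past edgeR's test and a median log2 fold change of 0.10, and the interleukin-1 and inflammasome list 0 of 11 and -0.22. The mast cell and basophil list had 0 of 8 and -0.11, the prostaglandin list 0 of 7 and 0.16, and the leukotriene and lipoxygenase list 0 of 6 and 0.34. In B6_DRA the medians of these 5 lists were 0.17, 0.03, 0.16, 0.29 and 0.62. Without KO_DRA 10, 2, 0, 0, 0 and 1 of their genes passed in KO_DRA, beside 79 of all genes.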
